A study of Mus musculus with 12 samples.

Results

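The imprinted genes of the mouse Prader-Willi and Angelman region on chromosome 7 were examined in striatal RNA of mice with and without trace amine-associated receptor 5 (TAAR5), a G protein-coupled receptor for volatile amines. The set held 8 genes, matched by name in a table of 57132 features, and 6 of them had enough reads to be tested. They were Ndn, Magel2, Mkrn3, Peg12, Snrpn, Snhg14, Ube3a and Atp10a. The set was chosen by the comparison of genotypes itself, because Ndn had the smallest adjusted p of all features. The genotype differences of the 8 genes are therefore given as a description, with no test.

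There were 12 libraries, 6 labelled TAAR5-KO (NK1 to NK6) and 6 labelled WT (NK7 to NK12), 1 per mouse. All mice were C57Bl/6 littermates of 10 months, and the methods give 3 males and 3 females per genotype without tying a sex to a library. The tissue was what was left of a coronal slice in front of Bregma once the cortex had been cut away, so septum and other tissue of the slice may have been included. No treatment of either group is named. Total counts ran from 13766808 to 34824450 in libraries labelled TAAR5-KO and from 11269915 to 21198210 in those labelled WT. Between 65.9% and 90.6% of these lay on ribosomal RNA features and on Lars2, a gene with a stretch that resembles ribosomal RNA, which left 1408771 to 6085409 counts per library for other genes. Taar5 itself had 1 to 6 counts in libraries labelled TAAR5-KO and 0 to 2 in those labelled WT, against the labels, so every direction follows the labels only. The summed level of 8 markers of striatal projection neurons, among them Drd1, Drd2 and Penk, was 239 to 304 CPM (counts per M counts of a library, whose size was scaled by the trimmed mean of M-values, TMM) in libraries labelled TAAR5-KO and 143 to 261 CPM in those labelled WT, and 0 of the 8 passed an adjusted p under 0.1 in edgeR's likelihood ratio test (1 did in DESeq2, 0 in the quasi-likelihood test, and 3 had an unadjusted p under 0.05).

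Imprinted genes are transcribed from the allele of 1 parent. In this region the necdin gene Ndn, its neighbours Magel2, Mkrn3 and Peg12, the gene Snrpn and the long non-coding RNA Snhg14 are read from the paternal allele. Loss of the paternally expressed genes of the matching human region causes Prader-Willi syndrome. In neurons the ubiquitin ligase gene Ube3a is read from the maternal allele, because transcription of Snhg14 through it from the other strand silences the paternal copy, and loss of maternal UBE3A causes Angelman syndrome. Necdin and MAGEL2 are MAGE family proteins that bind ubiquitin ligases and are known for their roles in neuronal differentiation and in the hypothalamus. Bulk RNA cannot tell fewer cells of a type from less RNA per cell, and these counts do not tell the parental alleles apart.

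Ndn (ENSMUSG00000033585.6) covers chromosome 7 from 61996317 to 62000010 on the plus strand of GRCm39, in 3694 exonic bases without an intron. Magel2 (ENSMUSG00000056972.7), its nearest protein-coding neighbour, begins 30.4 kb further on, from 62026758 to 62031388 on the same strand. The 250 bases before the start of each are shown because this neighbouring pair gave different readouts. The window of Ndn is the one before its start in the count table (chr7:61996067-61996316, plus strand, GRCm39) and the window of Magel2 is the one before its RefSeq start (chr7:62026477-62026726, plus strand). The Magel2 sequence is from RefSeq (GRCm38) and was placed on GRCm39 by an exact and unique match. Capitals mark CpG dinucleotides, at which imprinted promoters carry allelic methylation.
Ndn: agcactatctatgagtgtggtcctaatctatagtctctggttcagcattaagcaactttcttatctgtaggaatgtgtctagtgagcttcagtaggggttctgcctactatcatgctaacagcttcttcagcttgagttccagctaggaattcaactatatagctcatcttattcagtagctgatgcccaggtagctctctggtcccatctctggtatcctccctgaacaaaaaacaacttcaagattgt
Magel2: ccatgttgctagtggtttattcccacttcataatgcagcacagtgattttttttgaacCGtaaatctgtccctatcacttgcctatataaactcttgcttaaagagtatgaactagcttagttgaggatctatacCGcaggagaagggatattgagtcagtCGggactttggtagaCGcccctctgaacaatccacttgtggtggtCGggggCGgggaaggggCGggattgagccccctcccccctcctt
The Magel2 window held 7 CpGs, and 46.3% of 32851 RefSeq windows of this length held at least as many. The Ndn window held 0. RefSeq places the start of Ndn further downstream, inside the exon of the count table, and the 250 bases before that start held 5 CpGs, a number that 55.6% of the windows reached. Methylation was not measured in these libraries, and the windows describe position only.

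**Figure D1:**
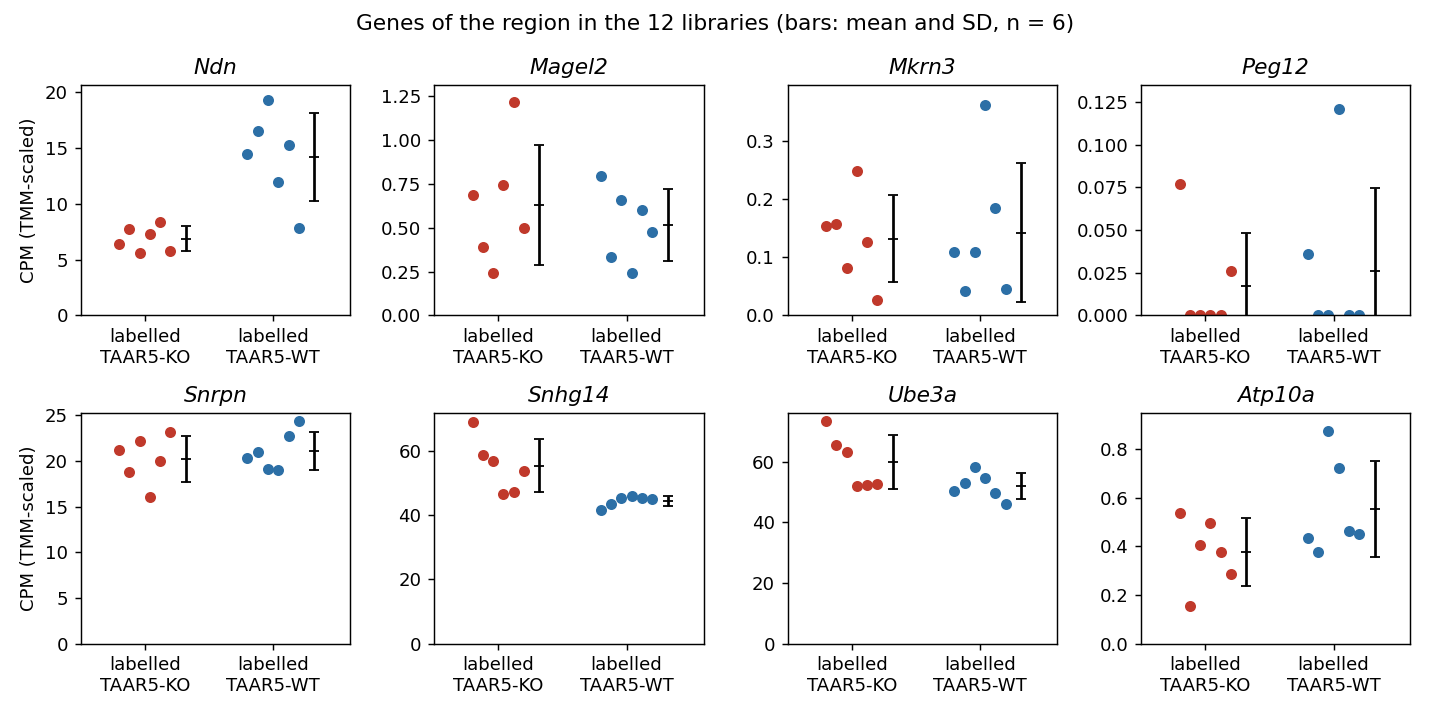
Level of each of the 8 genes in CPM (vertical axis, from 0, a different scale in each panel) in the 6 libraries labelled TAAR5-KO (red) and the 6 labelled TAAR5-WT (blue), with the mean and SD beside the points. Ndn was at most 8.36 CPM in libraries labelled TAAR5-KO and at least 11.9 CPM in 5 of 6 labelled WT, and the points of Snhg14 did not overlap.

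The mean level of Ndn in libraries labelled TAAR5-KO was 0.481 times that in libraries labelled WT. From NK1 to NK6, in this order, Ndn was counted at 6.36, 7.74, 5.60, 7.26, 8.36 and 5.77 CPM. From NK7 to NK12, labelled WT, it was counted at 14.4, 16.6, 19.3, 11.9, 15.3 and 7.85 CPM. The groups overlapped at 1 point, because NK12 lay just below NK5, and of the 36 pairs of a library from each group 1 had the higher level in the library labelled TAAR5-KO. The means were 6.85 ± 1.11 CPM (SD, n = 6) and 14.2 ± 3.95 CPM (SD, n = 6). The fitted log2 fold change was -1.05 with an SE of 0.17, which rests on 69 to 221 counts per library labelled TAAR5-KO and 99 to 400 per library labelled WT. Ndn varied more between replicates than most features, with a biological coefficient of variation of 0.194 against a median of 0.125 over all features tested. Its log2 CPM had an SD of 0.45 in libraries labelled WT and 0.23 in those labelled TAAR5-KO.

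Across the whole table, 229 of 13902 features tested (1.65%) passed a Benjamini–Hochberg adjusted p under 0.1 in edgeR's likelihood ratio test, 0.691% as lower and 0.957% as higher in libraries labelled TAAR5-KO. Of the 6 genes of the set that were tested, 1 passed as lower and 0 passed as higher. The one that passed was Ndn, and since its rank by p is what chose the set, nothing is read from that count. The log2 fold changes of the 6 had a median of 0.067, with 3 above and 3 below 0, whereas the median over all features was -0.0061.

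Magel2 lies beside Ndn and was read at low counts. The gene, whose protein works with the ligase TRIM27 at endosomes, stood at 0.689, 0.391, 0.243, 0.744, 1.22 and 0.496 CPM from NK1 to NK6. From NK7 to NK12 Magel2 stood at 0.793, 0.335, 0.657, 0.241, 0.601 and 0.475 CPM. The groups overlapped almost entirely, and the highest value, in NK5, was labelled TAAR5-KO. The log2 fold change of Magel2 was 0.29 with an SE of 0.35 (95% interval -0.40 to 0.99), on 2 to 29 counts per library, and it was -0.036 without NK5.

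Mkrn3 and Peg12 were near the limit of detection. Mkrn3, which encodes a makorin RING finger ubiquitin ligase, had 1 to 4 counts in each library, 13 in all in libraries labelled TAAR5-KO and 14 in those labelled WT. Peg12, also known as Frat3, had 1 count in 4 libraries, 2 of each label, and 0 in the other 8, which allows up to 3 counts each. Neither passed the filter on low counts (0.5 CPM on unscaled library sizes in at least 3 libraries). A difference between genotypes was not detectable at this depth. No other feature between Ndn and Peg12 passed the filter.

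Snrpn (ENSMUSG00000102252.6, chromosome 7, 59632243 to 59789967, minus strand) encodes SmN, the Sm protein that neurons use in their spliceosomes. Its levels were 21.2, 18.8, 22.2, 16.1, 20.0 and 23.2 CPM from NK1 to NK6, and 20.3, 20.9, 19.2, 19.1, 22.7 and 24.4 CPM from NK7 to NK12. The groups overlapped over most of their range, with means of 20.2 ± 2.56 CPM (SD, n = 6) labelled TAAR5-KO and 21.1 ± 2.11 CPM (SD, n = 6) labelled WT. The log2 fold change was -0.070 with an SE of 0.10 and a 95% interval from -0.27 to 0.13. Of its 2159 exonic bases, 65.9% are shared with no other feature. Snurf, the small upstream frame on the same transcript, had 0 counts in every library, and all 216 of its exonic bases are shared with Snrpn and with Gm38393, a same-strand gene model. That model stood at 22.9 to 37.1 CPM in libraries labelled TAAR5-KO and 20.0 to 29.4 CPM in those labelled WT (log2 fold change 0.33, SE 0.13, edgeR adjusted p = 0.213).

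Snhg14 was higher in every library labelled TAAR5-KO than in any labelled WT. This long RNA (ENSMUSG00000100826.7, chromosome 7, 58957672 to 59625507, minus strand) hosts small nucleolar RNAs in its introns and runs into Ube3a on the opposite strand. Its levels were 69.0, 58.9, 56.7, 46.6, 47.3 and 53.7 CPM from NK1 to NK6, against 41.5, 43.4, 45.2, 45.8, 45.4 and 45.0 CPM from NK7 to NK12. The gap between the groups was narrow, from 45.8 CPM in NK10 to 46.6 CPM in NK4. All 6 libraries labelled TAAR5-KO were above all 6 labelled WT for 0.619% of the features tested, and 1.01% did not overlap in either direction. The means were 55.4 ± 8.29 CPM (SD, n = 6) and 44.4 ± 1.65 CPM (SD, n = 6), and the spread lay in the libraries labelled TAAR5-KO (SD of log2 CPM 0.21 against 0.055). The log2 fold change of Snhg14 was 0.32 with an SE of 0.10, just outside the threshold that Ndn passed, and it was inside the threshold without NK4 or NK5 (0.36 each) and in DESeq2 (0.32). With each library's trend on transcript GC content removed, the log2 fold change of Snhg14 was -0.055, and on unscaled library sizes it was -0.23 where the median over all features was -0.49.

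Several other long RNAs that stay in the nucleus were also higher in the libraries labelled TAAR5-KO. Of 9 such RNAs on a fixed list, 6 rose at the same threshold and 0 fell, with a median log2 fold change of 0.56. Of all long non-coding RNAs tested, 4.26% rose at this threshold. Malat1, an abundant RNA of nuclear speckles, stood at 955 ± 144 CPM labelled TAAR5-KO and 649 ± 92.0 CPM labelled WT (SD, n = 6 each; log2 fold change 0.56, SE 0.13, edgeR adjusted p = 0.0101). Meg3, a maternally expressed imprinted RNA of another chromosome, stood at 159 ± 35.4 and 97.3 ± 18.0 CPM (SD, n = 6 each; log2 fold change 0.71, SE 0.15, edgeR adjusted p = 0.00289). Kcnq1ot1 (0.52), Mirg (0.63), Snhg11 (0.63) and Ftx (0.69) were the others that rose, by log2 fold change. Neat1 (0.017), Rian (0.34) and Miat (0.36) did not pass. The summed level of the 9 RNAs was 1180 to 1718 CPM in libraries labelled TAAR5-KO and 782 to 1100 CPM in those labelled WT, without overlap, and NK1 was the highest for this sum as it was for Snhg14. In the quasi-likelihood test 5 of the 9 rose, and in DESeq2 7. On unscaled library sizes 0 passed, at values of 0.080 for Malat1 and 0.33 for Meg3 where the median over all features was -0.49. With the GC trend removed 6 of the 9 still rose, at 0.52 for Malat1 and 0.76 for Meg3, whereas Snhg14 was at -0.055. The part of this shift in the level of Snhg14 was not tested.

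Like Snhg14, Ube3a (ENSMUSG00000025326.13, chromosome 7, 58878498 to 58961284, plus strand) was highest in NK1, NK2 and NK3. It had 73.4, 65.7, 63.3, 52.0, 52.3 and 52.9 CPM from NK1 to NK6, and 50.4, 52.9, 58.3, 54.8, 49.7 and 46.2 CPM from NK7 to NK12. NK1, NK2 and NK3 were above every library labelled WT, and the other 3 labelled TAAR5-KO lay within the range of those labelled WT. The log2 fold change was 0.20 with an SE of 0.11 (95% interval -0.0048 to 0.41), between means of 59.9 ± 8.90 and 52.1 ± 4.21 CPM (SD, n = 6 each). NK1, NK2 and NK3 were also 3 of the 4 libraries with the greatest share of counts on ribosomal RNA features and Lars2 (90.4% to 90.6%), and NK9, the other one, had the highest Ube3a of those labelled WT. NK1, NK2 and NK3 also had the highest sums of 9 neighbours read from both alleles (174, 163 and 150 CPM). The same was true of 13 genes that maintain imprints (222, 214 and 209 CPM). NK9 came next in both lists, at 147 and 195 CPM. For 17 genes of the MAGE family and the MAGEL2 complex, NK1 to NK3 (166, 177 and 173 CPM) were not the highest. The part of the ribosomal share, or of a shift shared with other genes, in these levels was not tested.

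**Figure D2:**
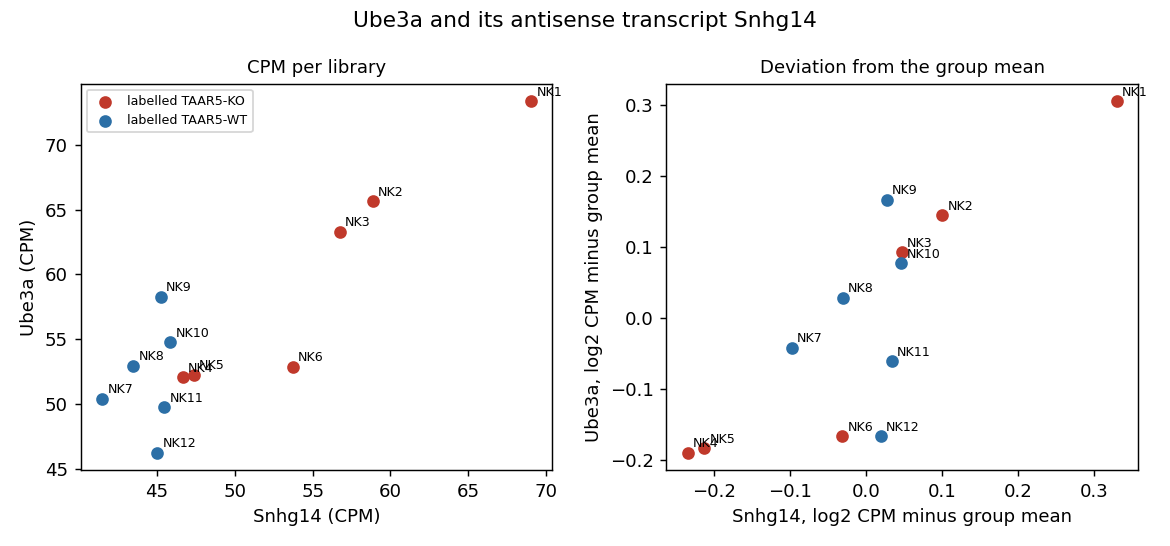
Ube3a (vertical axis) against Snhg14 (horizontal axis) per library, as CPM on the left and as the deviation of log2 CPM from the mean of the library's group on the right, with libraries labelled TAAR5-KO in red and TAAR5-WT in blue. In CPM, NK1, NK2 and NK3 are the highest 3 libraries for both genes, and the libraries labelled WT spread along Ube3a but little along Snhg14.

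Over the 12 libraries, deviations of Snhg14 and Ube3a from their group means had a Pearson's r of 0.82 (permutation p = 0.00511, adjusted p = 0.0767 over 15 pairs of genes) and a Spearman's rho of 0.84 (permutation p = 0.0212, adjusted p = 0.318). Permutations were two-sided and within groups. Neither passed 0.05 after adjustment, and r was 0.64 without NK1 and NK4, whose Snhg14 deviations lay farthest from the median deviation. Within the 6 libraries labelled TAAR5-KO r was 0.94, and within the 6 labelled WT it was 0.19, so the relation rests on the first group. The ratio of Ube3a to Snhg14 counts ran from 0.984 to 1.12 in libraries labelled TAAR5-KO and from 1.03 to 1.29 in those labelled WT. Of the other 14 pairs, Ndn and Snrpn had the smallest raw p, with r of -0.57 (permutation p = 0.0398, adjusted p = 0.299), rho of -0.54 (permutation p = 0.0893, adjusted p = 0.443) and r of -0.34 without NK9 and NK12. For that pair r was -0.65 within libraries labelled TAAR5-KO and -0.62 within those labelled WT.

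The counts of Ube3a and Snhg14 depend on how reads on shared bases were counted. Of the exonic bases of Ube3a, 27.3% lie opposite the exons of another feature, 1803 of them opposite Snhg14. In the count table, 449 features share every exonic base with features on the other strand only, and 0 of these had a count in any library. The same was true of 1016 features that share every base on their own strand, while 33489 of 43994 features that share no base (76.1%) had counts. In features of this kind, reads on bases covered from both strands were assigned to neither, although the libraries were made with a directional kit. A read of antisense RNA that falls on a Ube3a exon beyond the annotated end of Snhg14 cannot be told apart from a Ube3a read in such counts.

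Atp10a (ENSMUSG00000025324.9, chromosome 7, 58305914 to 58479168, plus strand), which encodes a phospholipid flippase and whose imprinting in mouse brain is disputed, was low. It had 2 to 11 counts in libraries labelled TAAR5-KO and 6 to 20 in those labelled WT. In CPM it stood at 0.156, 0.392 and 0.536 (lowest, median, highest) in libraries labelled TAAR5-KO and at 0.376, 0.457 and 0.876 in those labelled WT, with overlapping groups. The log2 fold change was -0.42 with an SE of 0.30 (95% interval -1.0 to 0.17).

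Per length, Snrpn was the most abundant gene of the set. Mean levels in libraries labelled WT were 9.78 CPM per kb of exon for Snrpn, 3.85 for Ndn, 2.52 for Ube3a and 1.70 for Snhg14. In libraries labelled TAAR5-KO they were 9.37 for Snrpn, 2.91 for Ube3a, 2.12 for Snhg14 and 1.85 for Ndn, so Ndn stood above Ube3a and Snhg14 under the WT label and below both under the TAAR5-KO label. In libraries labelled TAAR5-KO, Snhg14 and Ndn differed by less than their spread (SD 0.318 and 0.302 CPM per kb). In those labelled WT, the lead of Ndn over Ube3a on full exon length was little more than the spread of Ndn (SD 1.07). All exonic bases of Ndn (100%) are shared with no other feature, against 72.7% in Ube3a and 65.9% in Snrpn. Where reads on shared bases were not counted, full length understates Ube3a and Snrpn. The order of Ndn and Ube3a under the WT label is therefore not settled. Magel2 followed at 0.136 CPM per kb labelled TAAR5-KO and 0.112 labelled WT, and Atp10a at 0.0674 and 0.0992. Mkrn3 (0.0518 and 0.0557) and Peg12 (0.00648 and 0.00989) were lowest.

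The wider region, from Tubgcp5 to 1 Mb beyond Peg12, held 327 features, of which 155 had a count and 40 were tested. Among the 34 that are not in the set, 3 rose and 0 fell at the threshold in edgeR's likelihood ratio test (12 higher and 0 lower at an unadjusted p under 0.05, a level that 6.38% of all features tested reached as higher and 5.54% as lower), with 28 log2 fold changes above 0 and a median of 0.17. Gm44831, an unspliced gene model of the class that awaits experimental confirmation (TEC), stood at 0.806, 1.35 and 2.60 CPM (lowest, median, highest) labelled TAAR5-KO and at 0.724, 0.755 and 0.986 CPM labelled WT (log2 fold change 0.98, SE 0.26, edgeR adjusted p = 0.0232). A230103L15Rik, also a TEC model, stood at 3.25, 3.45 and 5.39 CPM labelled TAAR5-KO and at 2.04, 2.66 and 3.26 CPM labelled WT (0.62, SE 0.18, edgeR adjusted p = 0.0593). Both lie inside the span of Snhg14 on its strand and share no exonic base with it, so reads of its unspliced RNA cannot be told apart from theirs. A330076H08Rik, a long non-coding RNA 0.416 Mb before Ndn, stood at 3.58, 4.22 and 7.35 CPM labelled TAAR5-KO and at 2.17, 3.08 and 3.68 CPM labelled WT (0.69, SE 0.20, edgeR adjusted p = 0.0643). The study reported slightly more of this RNA in knockout females than in knockout males. The part of sex in its spread was not tested, because no library is tied to a sex. None of these 3 calls held in edgeR's quasi-likelihood test (adjusted p from 0.117 to 0.174) or with the GC trend removed (log2 fold changes of 0.40 to 0.64).

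**Figure D3:**
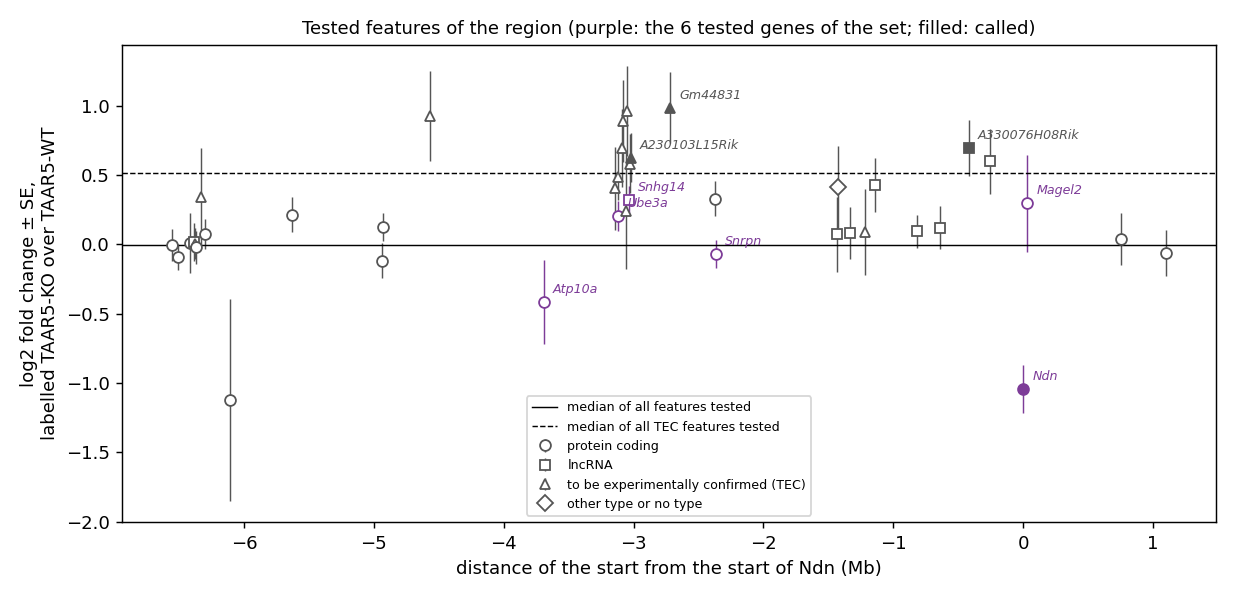
Log2 fold change of libraries labelled TAAR5-KO over TAAR5-WT, with its SE, of the 40 tested features of the region by the distance of their start from that of Ndn in Mb. Ndn at -1.05 is the only filled point below 0, and the triangles (TEC models) lie around the dashed line, the median of 0.51 of all such models tested.

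Most of these features belong to classes that were higher across the whole table. All 22 features of the region outside the set that are not annotated as protein coding had a log2 fold change above 0 (median 0.42), and over all features tested 971 of 1298 such features did (median 0.26). TEC models were above 0 in 421 of 478 cases over the whole table, with a median of 0.51. Of all TEC models 30 (6.28%) were called higher and 35.4% were higher at an unadjusted p under 0.05, and of all lncRNAs 4.26% and 15.5%. The 12 protein-coding features of the region outside the set divided into 6 above and 6 below 0 (median 0.0031), and over all protein-coding features the median was -0.019. Along the chromosome, the 13 features from Tubgcp5 to Atp10a had a median of 0.0093, the 6 from Atp10a to Snhg14 a median of 0.59, the 4 from Snhg14 to Snrpn 0.60 and the 9 from Snrpn to Ndn 0.12. These stretches differ in class. Most of the 13 are protein coding, all 6 are TEC models, and the 4 are TEC models except Gm38393. Position and class cannot be told apart in these medians. Among 9 neighbours that are read from both alleles, such as the GABA receptor subunit genes Gabra5 and Gabrg3 and the ligase gene Herc2, 0 rose and 0 fell in edgeR's likelihood ratio test, with a median of -0.0032, and 0 had an unadjusted p under 0.05 or a call in DESeq2 or the quasi-likelihood test. The farthest from 0 was Oca2, a melanosome transporter gene, at -1.12 with an SE of 0.73 on at most 14 counts.

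Small RNAs of the region were almost absent from the counts. Of 19 features named as C/D box small nucleolar RNAs (Snord), 2 had any count, at most 10 over all libraries. Of 13 features of the Mir344 family, 7 had a count, at most 7 over all libraries. Some of the Snord features share bases with exons of Gm38393, and reads on shared bases may not have been counted. A difference in the small RNAs processed from Snhg14 was not detectable in these counts.

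Few partner genes of the encoded proteins passed the threshold. Among 17 genes of the MAGE family and of the MAGEL2, USP7 and TRIM27 complex with retromer and WASH, 0 rose and 0 fell, with a median log2 fold change of -0.010, and Magee2 lay farthest from 0 at 0.46 (SE 0.25, edgeR adjusted p = 0.473). Of 6 tested Sm core genes, whose products assemble with SmN, 0 rose and 0 fell (median 0.070), with Snrpe at -0.36 (SE 0.23, edgeR adjusted p = 0.559). In both lists 0 genes had an unadjusted p under 0.05, and 0 were called in DESeq2 or the quasi-likelihood test. Of 12 tested genes that maintain imprints 1 rose, Smchd1, a chromatin protein known to act at this imprinted cluster, at 12.3 ± 1.35 and 9.91 ± 0.677 CPM (SD, n = 6 each; log2 fold change 0.30, SE 0.10, edgeR adjusted p = 0.0969). The adjusted p of Smchd1 was 0.164 in the quasi-likelihood test and 0.0760 in DESeq2, and on unscaled library sizes its log2 fold change was -0.18. Of these 12 genes 3 were higher and 0 lower at an unadjusted p under 0.05 in edgeR's likelihood ratio test. Of all features tested, 6.38% were higher and 5.54% lower at that level.

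Ndn is abundant in the hypothalamus, so markers of tissue beside the striatum were read in the same libraries. The summed level of 16 hypothalamic and preoptic markers was 1.30, 1.33, 1.54, 2.98, 4.58 and 1.23 CPM from NK1 to NK6. In libraries labelled WT, from NK7 to NK12, it was 3.82, 4.14, 5.04, 4.82, 10.1 and 1.90 CPM. The sum was thus lower in most libraries labelled TAAR5-KO. NK12 had both the lowest Ndn and the lowest sum of its group, and NK5 had the highest of both in its own. The highest sums did not match in the WT group. NK11 had the highest sum (10.1 CPM) with Ndn at 15.3 CPM, and NK9 had the highest Ndn (19.3 CPM) at a sum of 5.04 CPM. Pomc, with at most 73 counts in any library, is also on the pituitary list below, for which NK11 had the highest sum (56.1 CPM). Of the 6 markers that could be tested, 0 passed the threshold in edgeR's likelihood ratio or quasi-likelihood test or in DESeq2, 4 were lower at an unadjusted p under 0.05, and their median log2 fold change was -1.20. Oxt lay farthest from 0 (-1.67, SE 0.84, edgeR adjusted p = 0.405). Hcrt had at most 1 count and Agrp, Pmch and Hmx2 at most 2 counts in any library. The part of such tissue in the level of Ndn was not tested.

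**Figure D4:**
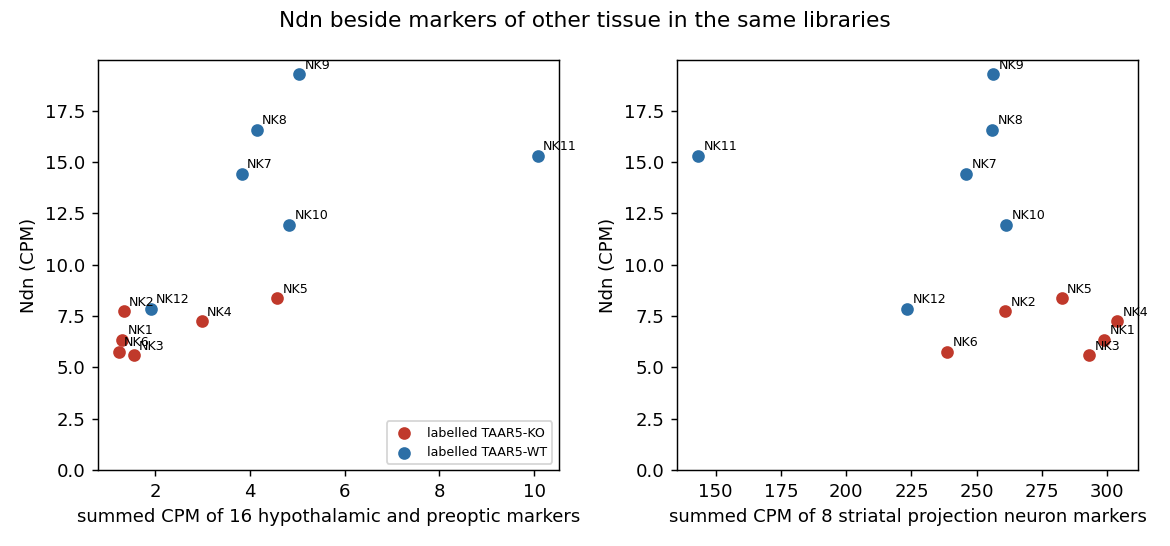
Ndn in CPM (vertical axis, from 0) against the summed CPM of 16 hypothalamic and preoptic markers (left) and of 8 striatal projection neuron markers (right) in each library, red for TAAR5-KO and blue for TAAR5-WT labels. NK12 lies among the libraries labelled TAAR5-KO on the left, and NK11 has the highest hypothalamic and the lowest striatal sum.

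Other marker lists differed less or were carried by a few libraries. The 4 septal Zic genes summed to 4.06 to 27.5 CPM labelled TAAR5-KO and 17.2 to 22.9 CPM labelled WT, 0 of 4 passing, with Zic2 at -0.23. The 6 cortical pyramidal markers summed to 30.5 to 101 and 36.6 to 113 CPM, 0 of 6 passing, with Neurod6 at 0.32. The 6 general neuronal markers summed to 739 to 1067 and 818 to 1074 CPM, 0 of 6 passing, with Tubb3 at -0.17. The 8 striatal markers above had log2 fold changes with a median of 0.28, and Drd1 lay farthest from 0 at 0.44 (SE 0.15, edgeR adjusted p = 0.141). Of 5 astrocyte markers 1 fell, the gap junction gene Gja1 (-0.41, SE 0.12, edgeR adjusted p = 0.0566), within sums of 951 to 1176 and 1056 to 1246 CPM. All 5 had a log2 fold change below 0, 3 of them at an unadjusted p under 0.05, and the call of Gja1 was lost in the quasi-likelihood test (adjusted p = 0.144), with no filter (0.243), without ribosomal RNA features (0.122), on unscaled library sizes (0.700) and without NK1, NK2, NK3, NK7, NK11 or NK12 (0.103 to 0.172). Among the septal, cortical, general neuronal and choroid plexus markers 0 had an unadjusted p under 0.05. The 5 choroid plexus markers ran from 2.53 to 468 and from 3.37 to 286 CPM, 0 of 5 passing, with Folr1 at -0.81. Of 3 tested pituitary hormone genes 1 fell, Gh (-3.59, SE 1.01, edgeR adjusted p = 0.0662), within sums of 0.313 to 5.80 and 0.469 to 56.1 CPM, and Prl lay farther from 0 without passing (-3.69). In the quasi-likelihood test Gh did not pass (adjusted p = 0.180), nor with the GC trend removed (0.102) or when NK11, NK12, NK6 or any of NK1 to NK3 was left out (0.119 to 0.320), and DESeq2 gave it no adjusted p and called 0 of the list, of which 2 were lower at an unadjusted p under 0.05.

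The features whose deviations from the group means were most like those of Ndn over the 12 libraries were Cep112 (Pearson's r 0.93), Araf (0.92), A930007I19Rik (0.91), Mvp (0.89) and Pspc1 (0.88). Those most like Snhg14 were Gm42768 (0.92), 2510002D24Rik (0.92), 2900064K03Rik (0.92), Sdccag8 (0.91) and Clip1 (0.90). These are the highest values among 13901 features, they share libraries and depth, and they are a description. Both lists were the same with a prior count of 0.5 on the log2 scale, and on unscaled library sizes 1 of the 5 for Ndn and 0 of the 5 for Snhg14 were shared.

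**Figure D5:**
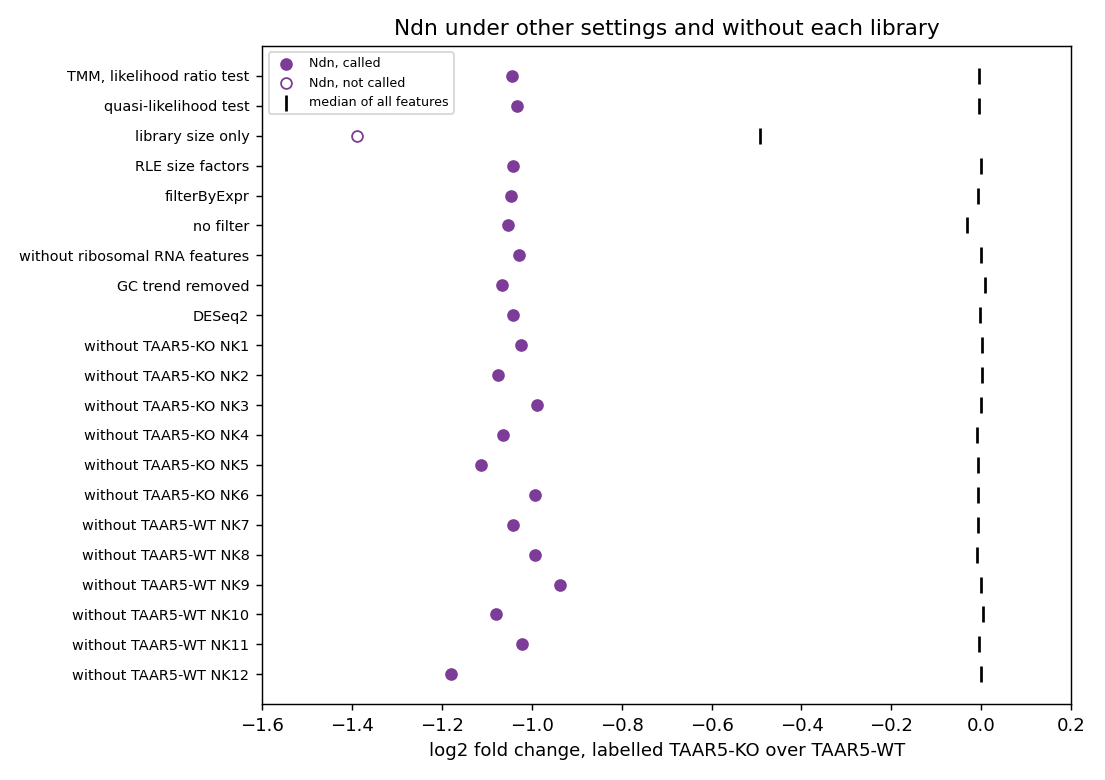
Log2 fold change of Ndn (points, filled where the adjusted p was under 0.1) and the median over all features (bars) in the fit described, under 8 other settings and without each of the 12 libraries. Ndn lies near -1 in each of these fits except that on unscaled library sizes, at -1.39 with a median of -0.49.

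These values describe the same contrast that chose the set, and support for it is not drawn from them. Without each library in turn, the log2 fold change of Ndn ran from -0.94 (without NK9) to -1.18 (without NK12). It was -1.03 in the quasi-likelihood test, -1.04 in DESeq2 and -1.07 with the GC trend removed, and it lay inside the threshold in each of these fits. On unscaled library sizes it was -1.39 and outside the threshold, while the median of all features stood at -0.49 and 7 features passed.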

How the data were processed

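Striatal RNA of 12 mice was sequenced as single-end reads after depletion of ribosomal RNA, although the labels name polyA RNA. The authors trimmed reads with cutadapt 4.1, aligned them with STAR 2.7.11b to GRCm39 (GENCODE M35) and counted them with featureCounts 2.0.6. The counts were deposited as whole numbers, neither normalized nor pooled. How strand and multiply mapping reads were handled is not given in the sources used here. Columns name a genotype and a library (NK1 to NK12), with neither animal nor sex. A further 12 columns were not used.

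The tests, groups and covariates follow the study's methods, which name normalization to CPM and do not name TMM. More features were tested and called here than the study reported. Most calls here were higher under the TAAR5-KO label, whereas most of the study's were lower. Features with at least 0.5 CPM in at least 3 libraries were kept, with CPM for this filter on unscaled library sizes. They were then scaled by TMM and compared with glmFit and glmLRT (edgeR 4.0.16, R 4.3.3) without covariates, at a Benjamini–Hochberg adjusted p under 0.1. Standard errors came from the same fit, which was tested on simulated data. Alternatives were the quasi-likelihood test, DESeq2 1.42.0, other scalings, filters and thresholds, leaving out each library and, added after the data were seen, removal of each library's GC trend (loess, span 0.5). Gene classes and GC content came from GENCODE M39. Named were all 8 genes, called features of the region and of the lists, the gene of each list farthest from 0 and the 5 features most like Ndn and Snhg14. Gm38393, the low markers Hcrt, Agrp, Pmch and Hmx2, and the long RNAs Neat1, Rian and Miat were named after their values were seen. The genes and lists were chosen with earlier results of these data known. Ipw, Pwrn1 and Mkrn3os were not matched in the table. A list of UBE3A partner genes enters the counts over partner genes in the closing section but is not reported here gene by gene. Limits from a count of 0 cover counting error only, and the intervals of log2 fold changes and the p-values include the spread between mice of each label.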

Additional observations from a re-analysis of the deposited data

How the results depend on the processing

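No paired analysis was possible because the columns carry no number that the labels share between genotypes. On unscaled library sizes, 0 genes of the set were called lower in place of 1, Ndn was at -1.39 without passing, and the log2 fold changes turned sign for Magel2 (-0.13), Snhg14 (-0.23), Ube3a (-0.33) and Smchd1 (-0.18), while the median of all features was -0.49. With the GC trend removed, Snhg14 turned to -0.055, and without NK5 Magel2 turned to -0.036, within a range of -0.036 to 0.48 over all left-out libraries. In DESeq2, 1 gene of the set (Snhg14) was called higher in place of 0. Leaving out each library gave 0 to 1 genes of the set called higher.

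Of the neighbouring and partner genes, 1 was called lower and 1 higher. In the lower direction the count was 0 with the quasi-likelihood test, library size only, no filter, ribosomal RNA features left out, the GC trend removed, DESeq2 and an adjusted p under 0.05, and in the higher direction it was 0 with each of these except DESeq2, which gave 1. Leaving out each library gave 0 to 1 in either direction. Of the other features of the region, 3 were called higher. The count was 0 with the quasi-likelihood test, library size only and the GC trend removed, 1 with no filter and with an adjusted p under 0.05, and from 1 to 8 when each library was left out. It was 8 without NK4, 5 without NK8 or NK9, and 1 without NK1, NK2, NK7, NK11 or NK12. Of the 5 features most like Ndn 1 was shared, and of those most like Snhg14 0 were shared, on unscaled library sizes. The calls over all features numbered 229, and 63 with the quasi-likelihood test, 177 in DESeq2 (which gave no adjusted p for 7009 features), 7 with library size only, 93 with no filter, 103 with the GC trend removed, and 85 (without NK11) to 415 (without NK4) when each library was left out. The cause of these differences was not tested. At 0 to 29 counts per library, Magel2, Mkrn3, Peg12 and Atp10a are limited by depth. Of 12 groups of 6 libraries for the tested genes, 0 had a library outside Dixon's limit.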
